A study of Mus musculus and blank sample with 768 samples.

Results

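Plvap, Cav1 and Cav2 are the 3 genes described here, out of 51734 gene symbols in the deposited read count tables of mouse single cells sorted from tumour, lymph node (LN) and blood. They were taken by name, with earlier results of these data known, and followed through every sort gate. Cells were sorted by FACS on CD45 (leukocytes), CD31 (endothelium) and GFP, and each was sequenced alone after SMART-seq2 amplification of full-length cDNA. The tumour gates were CD45- CD31+ GFP+ cells, which the labels name Csf1r lineage endothelial cells (CLECs), CD45- CD31+ GFP- endothelial cells (ECs) and CD45+ CD31- GFP- macrophages. The lymph node gates were CD45- CD31+ cells that were GFP+ (also named CLECs), GFPlow (named potential CLECs) or GFP- (named endothelial cells). GFP+ cells labelled CD45- CD31+ were also sorted from blood. The strain, the alleles that carry GFP, the age of the mice, the tumour model and the number of animals were not given in the sources used here. Each gate therefore counted as 1 sample, no test between gates was possible, and every interval below covers counting error only.

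Of 768 wells, 592 held a cell that passed the filters: 84 and 85 tumour CLECs on plates KM3 and KM4, 84 tumour ECs (plate KM2), 81 tumour macrophages (plate KM1), 98 LN GFP+ cells (43, 33 and 22 in pools A, B and C), 74 LN GFP- cells (40, 26 and 8 in pools A, B and C), 79 LN GFPlow cells (15, 14 and 50 in pools B, C and D) and 7 blood cells. Kept cells had 58373 to 3123112 reads (median 829498). Every tumour plate held 1 gate, so plate and gate cannot be told apart in the tumour, while the LN gates shared pools. The labels were checked against defining markers. Pecam1, which encodes CD31, was at 622 to 1902 CPM (reads of the gene per 1000000 summed reads of a gate) in the 5 endothelial gates and 5.91 CPM in macrophages. Ptprc, which encodes CD45, was at 334.2 CPM in macrophages and at most 2.97 CPM in those 5 gates. The 7 blood cells went against their CD45- CD31+ label, with Ptprc at 260.2 CPM (reads in 5 cells) and Pecam1 at 134.25 CPM (reads in 3 cells), and enter no comparison. Prox1, the transcription factor that defines lymphatic endothelium, was at 310.99, 206.01 and 468 CPM in LN GFP+, GFP- and GFPlow cells, at 1.12 CPM in tumour CLECs (1 cell) and at 0 in tumour ECs.

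Caveolae are flask-shaped pits of the plasma membrane, abundant in endothelium, whose coat is built from caveolin-1 (Cav1) and caveolin-2 (Cav2) together with the cavins; caveolin-1 is needed for the pits to form, and caveolin-2 joins it in hetero-oligomers. Plvap (plasmalemma vesicle-associated protein, PV-1, the antigen of the MECA-32 antibody) is the protein of the thin diaphragms that close the necks of caveolae and the openings of fenestrae and transendothelial channels. In lymph nodes it is also known from the lymphatic endothelium of the sinuses, where its diaphragms sieve what enters the conduits.

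Cav2 and Cav1 are neighbours on chromosome 6. In the GENCODE annotation of GRCm38, Cav2 (ENSMUSG00000000058) spans chr6:17281185-17289115 and Cav1 (ENSMUSG00000007655) spans chr6:17306335-17341452, both on the plus strand and 17219 bases apart. Plvap (ENSMUSG00000034845) lies on the minus strand at chr8:71497765-71511752. The antisense gene Gm15581 runs across Cav1 and Cav2, and Gtpbp3 overlaps the end of Plvap, but in each case the pair shares 0 exonic bases. The 250 bases before the annotated starts of Cav1 and Cav2 are shown because these neighbours had similar orders of level across the gates; they are the RefSeq promoter entries on GRCm38.p6, from which Plvap is missing, and Cav1 has a further entry for a later start. Capitals mark GGGCGG or its complement CCGCCC, the GC box.
Cav1, chr6:17306085-17306334, plus strand: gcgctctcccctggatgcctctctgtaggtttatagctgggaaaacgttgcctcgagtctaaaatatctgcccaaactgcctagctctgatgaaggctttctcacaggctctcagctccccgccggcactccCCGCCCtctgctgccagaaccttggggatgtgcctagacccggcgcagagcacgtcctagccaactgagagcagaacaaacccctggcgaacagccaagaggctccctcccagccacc
Cav2, chr6:17280935-17281184, plus strand: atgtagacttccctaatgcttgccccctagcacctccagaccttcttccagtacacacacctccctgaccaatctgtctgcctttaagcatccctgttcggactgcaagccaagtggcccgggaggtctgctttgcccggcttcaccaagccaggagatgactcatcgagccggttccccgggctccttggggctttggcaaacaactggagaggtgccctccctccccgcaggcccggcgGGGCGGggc
Each held 1 GC box, a match present in 32.7% of the 32851 promoter windows of the same length. The ETS core GGAA, on either strand, occurred 1 time before Cav1 and 3 times before Cav2, and in 93.4% of all windows. The SOX core AACAAT and the forkhead motif TGTTTAC had no match in either, against 9.42% and 3.17% of all windows. TATAAA had 1 match, before Cav1, and occurs in 12.4% of windows. These are matches of letters and not shown sites of binding.

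Plvap was a gene of every endothelial gate. Its level was 1569.7 and 1993 CPM on the 2 plates of tumour CLECs and 1194 CPM in tumour ECs. In the lymph node it was 4521, 4645 and 2849.9 CPM in GFP- cells of pools A, B and C, 2459.9, 2324 and 1852 CPM in GFP+ cells of the same pools, and 1757, 1851 and 1974 CPM in GFPlow cells of pools B, C and D. The GFP- pools were the highest, and the ranges of GFP+ pools, GFPlow pools and CLEC plates overlapped. Tumour ECs came next. The 81 macrophages together held 1 Plvap read (0.012 CPM). Plvap reads were found in 94.1% of tumour CLECs (95% Clopper-Pearson interval 89.4 to 97.1%), 85.7% of tumour ECs (76.4 to 92.4%), 98.98% of LN GFP+ cells (94.4 to 99.97%), 94.6% of LN GFP- cells (86.7 to 98.5%) and 93.7% of LN GFPlow cells (85.8 to 97.9%), against 1.23% of macrophages, the non-endothelial background.

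**Figure D1:**
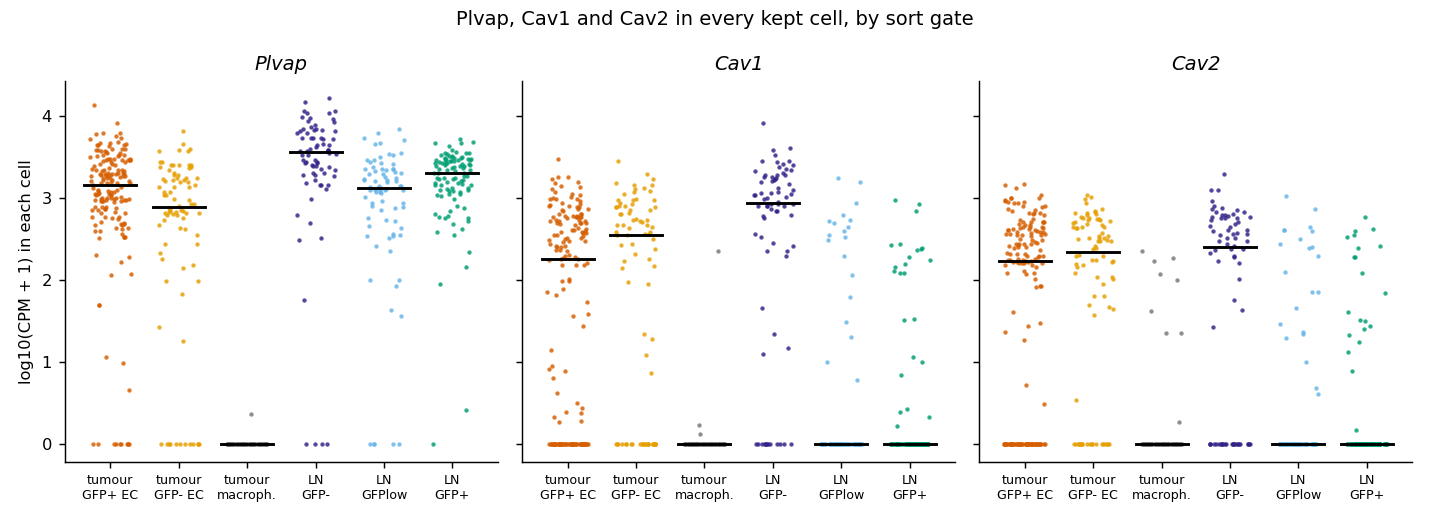
Level of Plvap, Cav1 and Cav2 in each kept cell, as log10(CPM + 1), by sort gate; points are cells, spread sideways at random, and the black bar is the median cell. Plvap has a high median in all 5 endothelial gates, while the median LN GFP+ and LN GFPlow cell has no Cav1 or Cav2 read.

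Cav1 had a different order. It was highest in LN GFP- cells, with 1267, 1265 and 1313 CPM in pools A, B and C. Tumour ECs had 469.5 CPM and tumour CLECs 383.4 and 327.3 CPM on plates KM3 and KM4. LN GFPlow cells had 164.98, 70.2 and 152.4 CPM in pools B, C and D, and LN GFP+ cells 52.1, 85.4 and 52.9 CPM in pools A, B and C. The GFPlow and GFP+ pools overlapped, and no pool of either reached the lowest tumour plate. Reads were found in 82.4% of LN GFP- cells (71.8 to 90.3%), 69.05% of tumour ECs (58.02 to 78.7%), 66.9% of tumour CLECs (59.2 to 73.9%), 24.5% of LN GFP+ cells (16.4 to 34.2%) and 24.1% of LN GFPlow cells (15.1 to 34.98%). The macrophage share was 3.7% (3 cells), and 98.8% of the macrophages' Cav1 reads came from 1 cell.

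Cav2 followed the same order of gates with more spread between pools. LN GFP- cells had 442, 209.7 and 96.2 CPM in pools A, B and C, a range that took in tumour ECs (289.9 CPM) and both plates of tumour CLECs (249.9 and 291.8 CPM). LN GFP+ cells had 72.5, 19.3 and 19.3 CPM, and LN GFPlow cells 5.31, 6.08 and 95.2 CPM in pools B, C and D. The pool D value came from 32% of 50 cells, against 20% of 15 and 21.4% of 14 cells in pools B and C. Cav2 reads were found in 66.2% of LN GFP- cells, 76.2% of tumour ECs, 65.7% of tumour CLECs, 21.4% of LN GFP+ cells, 27.8% of LN GFPlow cells and 11.1% of macrophages. The macrophage level was 6.45 CPM, so the 2 lower GFPlow pools were no higher than macrophages in summed level. Small pools rested on few cells: 1 cell gave 66.6% of Plvap and 94.6% of Cav2 reads among the 8 GFP- cells of pool C, 88.5% of Cav2 reads in GFP+ pool B, and 95.9% of Cav1 reads in GFPlow pool C.

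**Figure D2:**
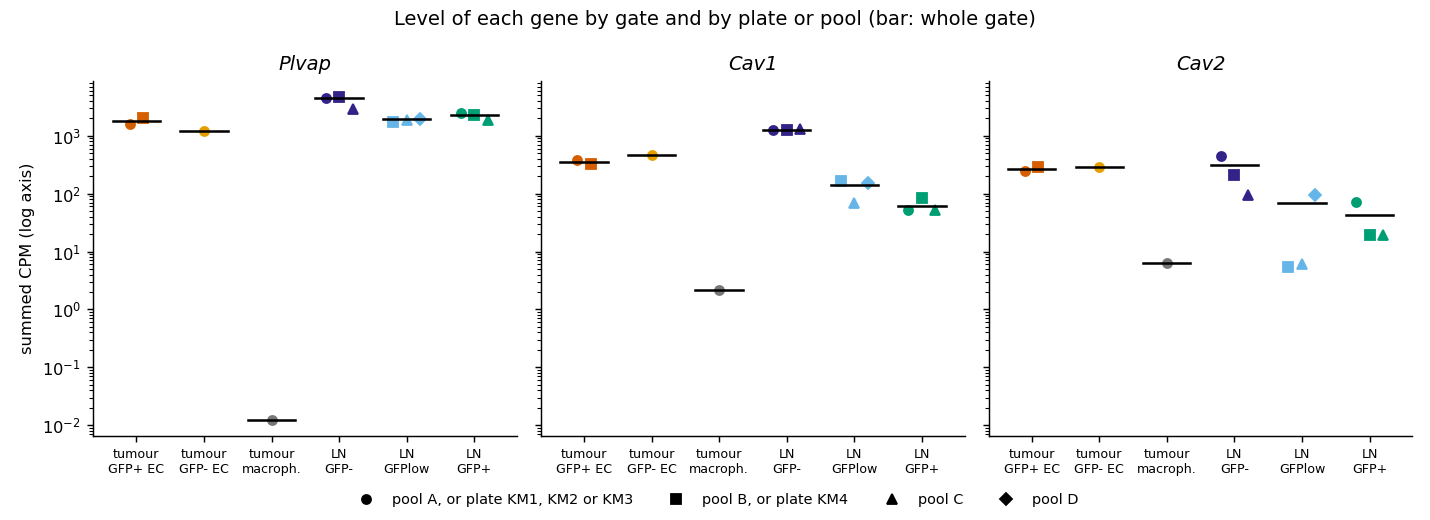
Summed CPM of each gene on a log axis, by gate; points are plates or pools and the black bar is the whole gate. Plvap stays between 1194 and 4645 CPM in the endothelial plates and pools, whereas Cav1 spans 52.1 to 1313 CPM and Cav2 5.31 to 442 CPM.

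Gates differed in depth, so the shares were repeated with each cell thinned to 100000 reads, which left out 1 to 3 cells a lymph node gate and 2 in each tumour endothelial gate. Thinned shares of cells with Cav1 were 62.3% (tumour CLEC), 69.5% (tumour EC), 83.1% (LN GFP-), 21.1% (LN GFP+) and 23.1% (LN GFPlow), against 1.23% in macrophages. Those with Cav2 were 64.7%, 76.8%, 66.2%, 18.9% and 24.4% in the same order, against 9.88% in macrophages. Those with Plvap stayed between 85.4% and 97.9% in the endothelial gates and were 0 of 81 macrophages, an exact upper bound of 4.45%. Among cells with no read of a gene, absence and a missed transcript cannot be told apart.

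Levels of different genes were compared per kilobase of the union of exons (1987 bases for Plvap, 3444 for Cav1 and 3335 for Cav2). Per kilobase, Plvap was 4.41 times Cav1 in tumour ECs, 6.02 times in LN GFP- cells and 8.75 times in tumour CLECs, but 23.6 times in LN GFPlow and 63.4 times in LN GFP+ cells. Against Cav2 the Plvap ratio per kilobase was 6.91 in tumour ECs, 11.1 in tumour CLECs, 24 in LN GFP-, 47.3 in LN GFPlow and 88.3 in LN GFP+ cells. The ratio per kilobase of Cav1 to Cav2 varied less, from 1.26 in tumour CLECs to 3.99 in LN GFP- cells.

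The cells themselves fell into the same pattern when each gene was called present at 10 CPM. All 3 genes were present in 42 of 74 LN GFP- cells (56.8%, 44.7 to 68.2%), 40 of 84 tumour ECs (47.6%, 36.6 to 58.8%) and 74 of the tumour CLECs (43.8%, 36.2 to 51.6%). They were present together in 5 of 98 LN GFP+ cells (5.1%, 1.68 to 11.5%) and 3 of 79 LN GFPlow cells (3.8%, 0.79 to 10.7%). Plvap without either caveolin was the commonest state in those gates, with 65 of 98 LN GFP+ cells (66.3%, 56.1 to 75.6%) and 45 of 79 LN GFPlow cells (56.96%, 45.3 to 68.1%). It was seen in 32 tumour CLECs (18.9%), 9 tumour ECs (10.7%) and 7 LN GFP- cells (9.46%). The Plvap-alone share was 62.8%, 72.7% and 63.6% in GFP+ pools A, B and C, and 66.7%, 64.3% and 52% in GFPlow pools B, C and D. In LN GFP- pools A, B and C it was 2.5%, 23.1% and 0% (0 of 8 cells). A caveolin without Plvap was uncommon in every endothelial gate, at 1.02% to 11.9% of cells.

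**Figure D3:**
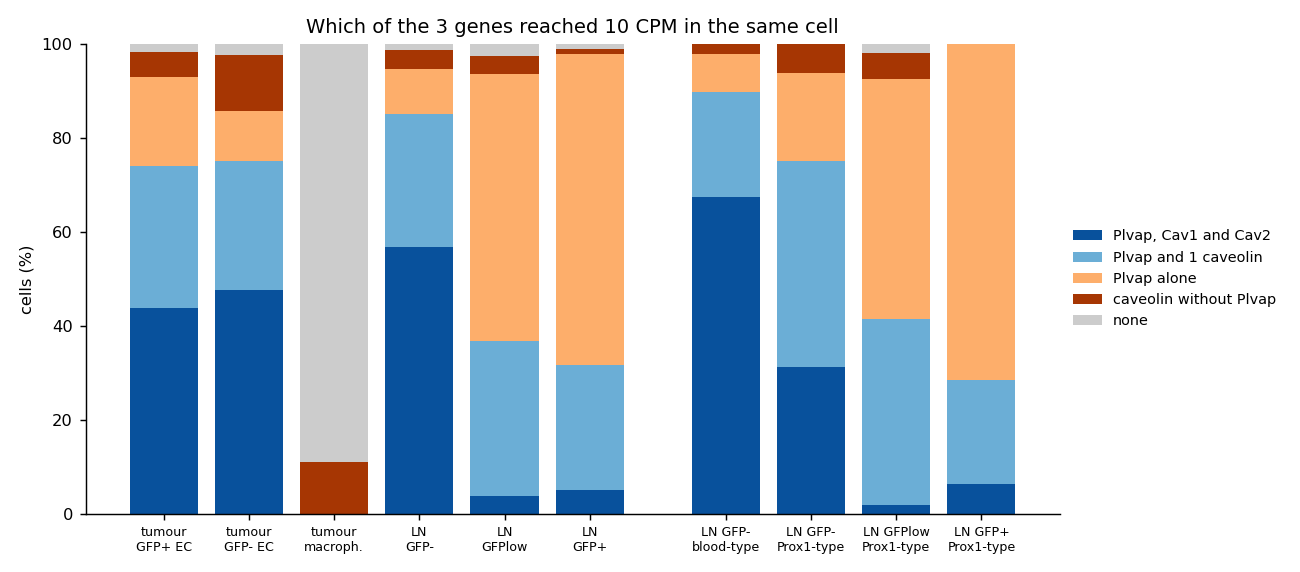
Share of cells (%) in which Plvap, Cav1 and Cav2 reached 10 CPM, by gate and, on the right, by cells that carried Prox1 or blood endothelial markers; each bar sums to 100%. Plvap alone makes up 66.3% of LN GFP+ and 56.96% of LN GFPlow cells but 9.46 to 18.9% of the other endothelial gates.

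The first comparison set tumour CLECs against tumour ECs, asking how the GFP-marked endothelium of the tumour differs from its neighbours. Plvap was 1.5-fold higher in CLECs (1788 CPM, 1782 to 1795, against 1194, 1186 to 1202), a log2 ratio of 0.58, and was higher on each CLEC plate (0.39 on KM3 and 0.74 on KM4). Cav1 was lower in CLECs on each plate, with a log2 ratio of -0.40 (-0.29 and -0.52). Cav2 differed by -0.09, with -0.21 on KM3 and 0.01 on KM4. Of the 3 genes, 0 reached the 2-fold difference used as a call, which 6.95% of the measured genes reached upwards and 8.25% downwards. All ratios add 1 CPM to each level, and a gene was measured where a group had at least 1 CPM and reads in 5% of cells. Blood endothelial markers summed to 5792 CPM in CLECs and 6415 CPM in ECs.

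The rest of the caveolar coat was also alike in level on the tumour plates. The list of caveolins and cavins holds Cav1, Cav2, Cav3 (the muscle caveolin), Ptrf (cavin-1, required for the coat), Sdpr (cavin-2), Prkcdbp (cavin-3) and Murc (cavin-4, of muscle). Cav3 and Murc were not measured, and 0 of the 5 measured genes were 2-fold apart (median log2 ratio -0.09, against -0.12 over all measured genes). Ptrf was at 525.8 CPM in CLECs and 523 CPM in ECs, Prkcdbp at 686 and 818 CPM, and Sdpr at 91.7 and 80.3 CPM. Of 8 measured genes of the caveola neck (dynamins, EHD proteins, pacsins), and of 10 for cargo and signalling, 0 were 2-fold apart; Ehd1 had the largest neck difference (-0.73). Of 9 measured genes of fenestrated and permeable capillaries, 2 were higher in CLECs: Esm1, a proteoglycan of sprouting endothelium (151.1 against 59.6 CPM, log2 ratio 1.33), and Gpihbp1, the capillary anchor of lipoprotein lipase (697 against 299.1 CPM, 1.22); the count was 1 without plate KM4, with cells thinned and with a higher floor for low genes, and 3 without plate KM3. Of 6 measured genes of barrier and transcytosis control, 3 were lower in CLECs: Lsr, of tricellular junctions (-1.56), Ocln, occludin (-1.40), and Slc2a1, the glucose transporter of barrier endothelium (-1.03). Of 12 endothelial transcription factors, Sox17 (-1.32) and Gata2 (-1.28) were lower.

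All 3 genes were far higher in tumour endothelial cells than in tumour macrophages. Cav1 had log2 ratios of 6.83 in tumour CLECs and 7.23 in tumour ECs over macrophages, and Cav2 had 5.19 and 5.29. For Plvap, with its 1 macrophage read, the ratio is set by the added CPM (10.79 for CLECs with a counting interval of 10.70 to 10.81, and 8.48 with 5 CPM added). With 5 CPM added the other CLEC ratios were 5.65 for Cav1 and 4.59 for Cav2, and those of ECs 7.90, 6.06 and 4.69 for Plvap, Cav1 and Cav2; as a mean over cells, the Cav2 ratios were 4.48 and 4.60, and with thinned CLECs 4.56. All 3 were called higher in each comparison, where 24.2% of measured genes were higher and 19.7% lower in CLECs, and 27.5% higher and 19.3% lower in ECs. All 5 measured caveolins and cavins were higher in each (median log2 ratios 6.83 and 7.23, against 0.08 and 0.21 over all measured genes). Ptrf was at 0.125 CPM in macrophages, and Nos3 (endothelial nitric oxide synthase, which binds caveolin-1) and Ehd2 (an ATPase of the caveola neck) were at 0.

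In the lymph node, GFP+ cells were compared with GFP- cells of the same pools. Cav1 was 20.4-fold lower in GFP+ cells (61.5 CPM, 59.9 to 63.1, against 1270.4, 1260 to 1281), a log2 ratio of -4.35, and its ratio was -4.58, -3.87 and -4.61 in pools A, B and C. Cav2 was 7.08-fold lower (42.7 CPM, 41.4 to 44.1, against 308.6, 303.6 to 313.6), a log2 ratio of -2.82 (-2.59, -3.37 and -2.26 in the pools). Plvap was 1.962-fold lower (2249 CPM, 2239 to 2258, against 4412, 4393 to 4431), at -0.97 (-0.878, -0.999 and -0.621). So 2 of the 3 genes were called lower, where 19.2% of measured genes were lower and 20.1% higher. Plvap lay at the edge of the call: it passed as a mean over cells (-1.10), with cells thinned (-1.14) and without pool A (-1.05). Thinned, Cav2 was at -3.41.

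The coat genes were lower together in LN GFP+ cells: 5 of 5 measured caveolins and cavins, with a median log2 ratio of -3.32 against 0.04 over all measured genes, and 5 of 5 without any 1 pool. Pan-endothelial markers were lower too, 6 of 8 (median log2 ratio -1.50), with sums of 2657 against 7560 CPM and none of the 8 at 0 in either gate; their part in the result was not tested. Ptrf was at 12.1 against 146.6 CPM (-3.49), Prkcdbp at 45.7 against 465 CPM (-3.32) and Sdpr at 95.7 against 483 CPM (-2.32). Of 9 measured neck genes, 3 were lower and 2 higher: Ehd2 was at 3.91 against 121.8 CPM (-4.64), Ehd4 at 36.7 against 383.8 CPM (-3.35) and Ehd1, an EHD protein of endosomal recycling, was higher at 358.1 against 125.4 CPM (1.51). Of 12 cargo and signalling genes, 2 were higher and 7 lower, among them Scarb1, the HDL receptor (33.9 against 879 CPM), and Nos3 (9.19 against 146.1 CPM). Cd36, a fatty acid translocase, was at 0.063 against 1545 CPM. Of 10 genes of fenestrated and permeable capillaries, which as a group hold companions of Plvap in blood capillaries, 9 were lower (median -5.90): Nrp1, a VEGF co-receptor, had 1 read in GFP+ cells against 619 CPM, Emcn, a capillary and venous sialomucin, was at 1.30 against 529 CPM, and Gpihbp1 had 2 reads against 198.5 CPM.

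**Figure D4:**
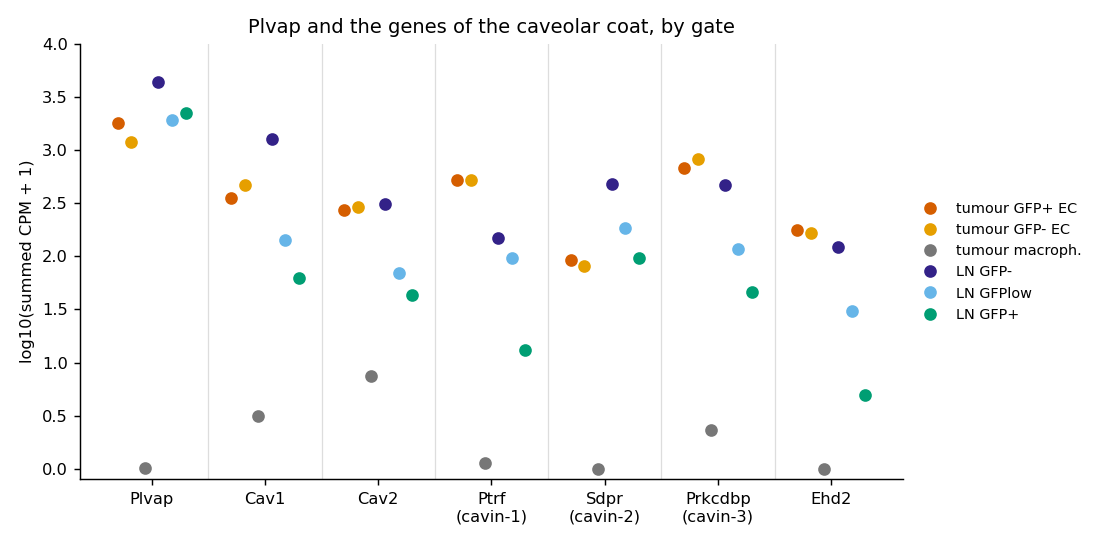
Level of Plvap, the caveolins, 3 cavins and Ehd2 as log10(summed CPM + 1) in each gate; each point is 1 gate. In the whole lymph node gates every coat gene steps down from GFP- to GFPlow to GFP+ cells, though in shared pools B and C Cav2 was lower in GFPlow (5.72 CPM) than in GFP+ cells (19.3 CPM), while Plvap is at 1924 CPM or more in all 3 gates.

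The gates also differed in the kinds of endothelium they held. All 8 blood endothelial markers were lower in LN GFP+ cells (summed 17.1 CPM, with Ly6c1, Notch4 and Sox17 at 0, against 5124 CPM in GFP- cells with none at 0). Lymphatic endothelial markers did not move together: of 7 measured, 3 were higher and 2 lower in GFP+ cells (median log2 ratio 0.87). Their sums went the other way, at 1402 CPM in GFP+ and 5549 CPM in GFP- cells, with none at 0 in either. By the types of cell set below, the GFP- sum was 8047 CPM in blood-type cells. It was 1853 CPM in Prox1-type cells, where Ccl21a was at 0. The comparison was therefore repeated within 1 type of cell, set by Prox1, Flt1 and Cd34 alone. A cell was called Prox1-type at 10 CPM or more of Prox1 with less than 10 CPM of Flt1 and of Cd34, and blood-type where Flt1 or Cd34 reached 10 CPM and Prox1 did not. By this cut LN GFP+ cells were 63 Prox1-type, 1 blood-type, 6 with both and 28 with neither; LN GFP- cells were 16, 49, 5 and 4, and LN GFPlow cells 53, 2, 1 and 23. In the tumour all but 2 CLECs (1 with both kinds of marker, 1 with neither) and 83 of 84 ECs were blood-type, and 0 were Prox1-type. With 1 read in place of 10 CPM, 13 GFP+, 11 GFP- and 13 GFPlow cells changed type, and with 50 CPM 7, 4 and 5 did. Double-marked cells were left out of the comparisons by type, and no doublet caller was run.

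Within Prox1-type cells, Plvap was at 2207 CPM (2195 to 2220) in GFP+ and 2429 CPM (2402 to 2456) in GFP- cells, a log2 ratio of -0.14, and -0.07 and -0.08 within pools A and B; pool C had no GFP- Prox1-type cell. It was detected in 63 of 63 GFP+ and 15 of 16 GFP- cells. Cav1 was at 41.8 CPM (40.2 to 43.5) against 953 CPM (936 to 970), a log2 ratio of -4.48, with reads in 17.5% of GFP+ and 62.5% of GFP- cells. In pool A it was 22.4 against 1376 CPM, in pool B 90.96 against 779 CPM. Cav2 was at 39.1 CPM (37.5 to 40.7) against 220.6 CPM (212.5 to 228.8), a log2 ratio of -2.47, with reads in 23.8% and 50% of cells. The pools did not overlap for either caveolin, while Plvap was at 2304 against 2423 CPM in pool A and 2302 against 2431 CPM in pool B.

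Few cells carried these sums. In GFP+ Prox1-type cells 47.9% of Cav1 reads came from 1 cell, and in GFP- ones 30.2% did, rising to 67.7% among the 6 cells of pool A. For Cav2, 1 cell gave 84.6% of the reads of those 6 cells. In pool B, 1 cell gave 54.7% of Cav2 reads among 10 GFP- cells and 88.6% among 23 GFP+ cells. The Cav1 ratio was -3.81 without pool A and -6.15 without pool B, and that of Cav2 -3.07 without pool B. With markers called at 1 read, Plvap was at 0.03 and Cav1 at -3.58. The caveolins, 2 of the 3 genes, were called lower in each of these settings, where 26% of measured genes were lower and 30.7% higher. The 5 measured caveolins and cavins were lower again (median log2 ratio -3.16, against 0.06 over all measured genes), with Prkcdbp at 46.2 against 546 CPM, Sdpr at 84.7 against 765 CPM and Ptrf at 15.8 against 128.9 CPM. Of 10 measured neck genes 2 were lower, Ehd2 (3.81 against 41.1 CPM) and Ehd4 (32.7 against 84.5 CPM), and 5 were higher, among them Nostrin, a partner of Nos3 (98.7 against 21.4 CPM). Pan-endothelial markers were lower in these GFP+ cells, 6 of 8 (median log2 ratio -1.65), with sums of 2703 against 7675 CPM and none at 0. Blood endothelial markers summed to 10.3 CPM in the GFP+ cells (5 of 8 at 0) and 120.6 CPM in the GFP- cells (3 of 8 at 0). In the same order, macrophage markers summed to 106.7 and 15.3 CPM, fibroblast or pericyte markers to 260 and 44.7 CPM, and high endothelial venule markers to 2681 and 284.6 CPM. Lymphatic endothelial markers summed to 1698 and 1853 CPM, with 1 of 7 measured higher and 2 lower in the GFP+ cells. By gene, 2 of 3 measured macrophage markers were higher in the GFP+ cells and 1 was lower. Of 2 measured fibroblast or pericyte markers, 1 was higher and 1 lower. Of 3 measured high endothelial venule markers, 1 was higher and 2 lower (median log2 ratio -2.86), against the direction of their sum. The part of these marker lists in the result was not tested.

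**Figure D5:**
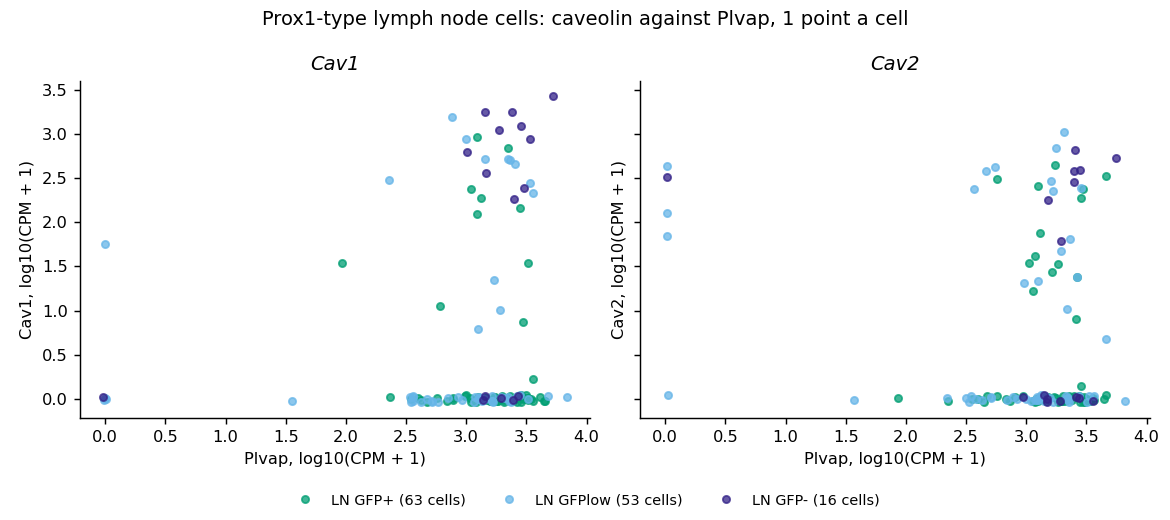
Cav1 (left) and Cav2 (right) against Plvap in each Prox1-type lymph node cell, as log10(CPM + 1), with small sideways offsets to separate points. Most cells of each gate lie at high Plvap, and 45 of 63 GFP+ cells but 3 of 16 GFP- cells have Plvap without a caveolin at 10 CPM.

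Among GFP- cells Plvap differed by type. Blood-type cells had 5997 CPM (5969 to 6026) and Prox1-type cells 2429 CPM, a log2 ratio of -1.30 for Prox1-type over blood-type (-1.23 in pool A and -1.60 in pool B). Cav1 was at 953 against 1457 CPM (-0.61) and Cav2 at 220.6 against 358.2 CPM (-0.70). Plvap, 1 of the 3, was therefore called lower, where 29.6% of measured genes were lower and 31.1% higher. The caveolin differences changed with the setting: Cav2 was called as a mean over cells (-1.17) and in thinned cells (-1.21), Cav1 was called without pool A (-1.18), and without pool B, Cav1 was at 0.18 and Cav2 at -0.07. Of the 5 measured coat genes, Sdpr was 2-fold higher in Prox1-type cells (765 against 248.6 CPM) and the others were within 2-fold.

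GFPlow cells were compared within pools B and C, where all LN gates were present. Against GFP- cells, Plvap was at 1807 against 4314 CPM (-1.25), Cav1 at 114.4 against 1274 CPM (-3.47) and Cav2 at 5.72 against 188.8 CPM (-4.82). All 3 were called lower, where 30.5% of measured genes were lower and 25.3% higher, and 5 of 5 measured coat genes were lower (median -2.11, against -0.05 over all measured genes). Without pool B, which leaves 14 GFPlow and 8 GFP- cells, the ratios were -0.62 for Plvap, no longer called, -4.21 for Cav1 and -3.78 for Cav2; with 5 CPM added Cav2 was at -4.18. In the GFPlow cells 8 of 8 blood endothelial markers (median log2 ratio -8.92) and 5 of 8 pan-endothelial markers (-1.45) were lower, and their part was not tested.

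Against GFP+ cells of pools B and C, GFPlow cells had similar Plvap (1807 against 2083 CPM, -0.20), with -0.40 in pool B and 0.00 in pool C. Cav1 was at 114.4 against 68.8 CPM (0.73) and Cav2 at 5.72 against 19.3 CPM (-1.60). Cav2 was the 1 gene called lower, where 25.4% of measured genes were lower and 20.5% higher. The call was lost with cells thinned (-0.61) and with a higher floor for low genes, and the ratio was -2.21 with a stricter cell filter; macrophages had 6.45 CPM. Of the other coat genes, Ptrf (33.5 against 13.7 CPM) and Sdpr (106.7 against 51.2 CPM) were called higher in GFPlow cells; as a mean over cells neither was.

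Tumour and lymph node gates were also compared with each other, and there the tissue, the plate and the sort cannot be told apart. Tumour CLECs were set against LN GFP+ cells, the other GFP+ gate. Plvap was at 1788 against 2249 CPM (-0.33), Cav1 at 354.4 against 61.5 CPM (2.51) and Cav2 at 271.5 against 42.7 CPM (2.64, and 3.74 without pool A). The caveolins were called higher, where 23.8% of measured genes were higher and 23.4% lower. Across all pairs of plate and pool the Plvap ratio ran from -0.65 to 0.11 and the Cav1 ratio from 1.93 to 2.85. Of the 5 measured coat genes 4 were higher in tumour CLECs (median 2.64, against 0.03 over all measured genes), led by Ptrf (526 against 12.1 CPM, 5.33), and Sdpr was level at 91.7 against 95.7 CPM. In these same cells 8 of 8 blood endothelial and 5 of 8 pan-endothelial markers were higher in tumour CLECs and 5 of 6 measured lymphatic markers lower, and their part was not tested.

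Tumour ECs were set against LN GFP- cells. Plvap was 3.69-fold lower in the tumour (1194 against 4412 CPM, -1.88) and Cav1 2.7-fold lower (469.5 against 1270.4 CPM, -1.43), each with the same sign against every pool, while Cav2 was at -0.09 and depended on the pool (-0.61, 0.47 and 1.58 against pools A, B and C, and 0.62 without pool A). The 2 calls stand beside 20.9% of measured genes lower and 25.5% higher. Against blood-type GFP- cells alone, which leaves out cells with Prox1 at 10 CPM or more, the ratios were -2.33 for Plvap, -1.63 for Cav1 and -0.30 for Cav2 (0.34 without pool A). Here 2 genes were called lower, where 19.5% of measured genes were lower and 32.3% higher. These blood-type cells still held lymphatic endothelial markers, summed to 8047 CPM with none of 8 at 0, against 482.4 CPM in tumour ECs. This sum does not follow the list gene by gene, and Prox1 was at 0.28 CPM in the blood-type cells. In GFP- Prox1-type cells 7 of 8 lymphatic markers were higher than in blood-type cells and 1 was lower (median log2 ratio 3.78). Yet the Prox1-type sum was 1853 CPM, with Ccl21a at 0. Of 5 measured lymphatic markers, 3 were lower and 1 higher in tumour ECs, and their part was not tested. High endothelial venule markers were lower in tumour ECs, 4 of 5 (median log2 ratio -7.66), with sums of 176.6 CPM (Glycam1, Chst4 and Fut7 at 0) against 5355 CPM (none at 0), and their part was not tested. The coat genes did not move as a group there: Ptrf was higher in tumour ECs (523 against 139.4 CPM, 1.90), Sdpr was lower (80.3 against 248.6 CPM, -1.62) and Prkcdbp was within 2-fold (818 against 453 CPM).

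Between cells of 1 gate, the levels of Plvap and the caveolins were weakly related. Spearman's rho between Plvap and Cav1 was 0.07 over tumour CLECs, 0.02 over 84 tumour ECs, 0.20 over 74 LN GFP- cells, 0.20 over 79 LN GFPlow cells and -0.03 over 98 LN GFP+ cells. Within plates and pools it reached 0.14 on KM3 and 0.38 in GFPlow pool D. Between Plvap and Cav2 it was 0.14 in tumour CLECs (0.23 on KM3 and 0.02 on KM4), 0.01 in tumour ECs, 0.29 in LN GFP- cells (0.32 in pool A and 0.18 in pool B), 0.04 in LN GFPlow and 0.05 in LN GFP+ cells, with 0.49 in the 22 cells of GFP+ pool C. For Cav1 and Cav2 it was 0.46 in tumour ECs and 0.38 in LN GFP- cells (0.31 in pool A and 0.53 in pool B), 0.15 in tumour CLECs on each plate, and 0.02 and 0.04 in LN GFP+ and GFPlow cells, where few cells had either. The cells of a gate count as 1 sample, and read depth and the many zeros bear on these values, which are given as descriptions. In tumour ECs, 49 of 84 cells had reads of both caveolins, 9 of Cav1 alone, 15 of Cav2 alone and 11 of neither.

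Genes with the most similar patterns were ranked over 13 units of gate and plate or pool, among 7140 genes, by Pearson's r of log2 levels. Plvap was most like Kdr, the main VEGF receptor (0.98), Parva, Arhgap29, Mmrn2, an endothelial matrix glycoprotein, and Timp3, a metalloproteinase inhibitor. Cav1 was most like Eng, the TGF-beta co-receptor endoglin (0.96), Slc9a3r2, Igfbp7, Ece1, the endothelin-converting enzyme, and Ptprb, a vascular phosphatase. Cav2 was most like Robo4, an endothelial guidance receptor (0.96), Prex2, Myct1, Ehd2 and Tek, the angiopoietin receptor. Among themselves the 3 genes had r of 0.77 (Plvap and Cav1), 0.44 (Plvap and Cav2) and 0.73 (Cav1 and Cav2). The units share gates and pools, and macrophages are the 1 unit without endothelium. That unit had Plvap at 0.012 CPM and Kdr at 0, against Plvap at 1194 to 4645 CPM in the endothelial units. The r values of Plvap therefore lean on this 1 unit. Cav1 was also lowest there, at 2.13 CPM against 52.1 to 1313 CPM in the endothelial units, so its r values may lean on the same unit. Values of r without this unit are not given.

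Over the tumour endothelial cells of both gates, among 1627 genes, the likeness between cells was weaker. Plvap had its highest Spearman's rho with Eng (0.40, with 0.34, 0.48 and 0.40 on plates KM2, KM3 and KM4), Ptgr1 (0.37), Entpd1, an ectonucleotidase of endothelium (0.34), Emcn (0.34) and Gpihbp1 (0.31). Cav1 had its highest with S100a11 (0.37), Npc2 (0.29), Edf1 (0.28), Sept4 (0.27) and Prnp (0.27). For Cav2 the values were highest with Ppp1ca (0.29), Ube2l3 (0.26), AA467197 (0.26) and Cav1 (0.26, with 0.46 on KM2 and 0.16 and 0.15 on KM3 and KM4).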

How the data were processed

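Per the labels, single cells were sorted and amplified by a modified SMART-seq2 with 20 cycles; Nextera XT libraries do not mark strand. The authors deposited raw read counts per gene in 2 tables with 51826 rows; per the submitters' processing notes, FastQC 0.11.4, STAR 2.4.1b, Subread 1.4.6-p2 and the build mm10 were used. Rows with a repeated symbol (92) were summed. No molecular identifiers exist, so PCR copies count as reads. All 768 columns matched a sample. Cells with at least 50000 reads, 1000 genes and at most 25% mitochondrial reads were kept, and no 2 kept cells had identical counts. Counts were summed by gate and given as CPM with exact Poisson 95% intervals. With no animal named, a gate is 1 sample and no test was made; 2-fold is the call, and the arithmetic was tested on simulated data. The 3 genes and the lists were chosen with earlier results of these data known. Genes of each list are named by size of the ratio (up to 3 per list and comparison, at 20 CPM or more in the higher group), with others chosen after their values were seen; some genes that the rule names are not reported here. Python 3.11.15, numpy 2.4.6, pandas 2.3.3 and scipy 1.17.1 were used. The alternatives tried were an added 5 CPM, stricter cells (100000 reads, 2000 genes, 10% mitochondrial), means over cells, thinning, totals without mitochondrial genes, a floor of 20 CPM and 25% of cells, other marker cuts and leaving out each plate or pool; the share of cells at 10 CPM was added after seeing the data.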

Additional observations from a re-analysis of the deposited data

Results flagged for a closer look

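Plvap differed between the tissues in the direction of its GFP contrast. In the tumour, GFP+ endothelial cells had more Plvap on each of their 2 plates (1569.7 and 1993 CPM) than GFP- cells on plate KM2 (1194 CPM), a log2 ratio of 0.58 over both. In the lymph node, GFP+ cells had less than GFP- cells in each of 3 pools (log2 ratio -0.97). Neither ratio reached the 2-fold call in the main setting, and the difference between these contrasts was not tested. In the tumour both gates were almost wholly blood-type cells, while in the lymph node 63 of 98 GFP+ and 16 of 74 GFP- cells were Prox1-type. Within Prox1-type lymph node cells the Plvap ratio was -0.14, and blood-type GFP- cells had 5997 CPM.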

How the results depend on the processing

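No paired analysis was possible because the numbers in the labels name wells and no label names an animal. Over 300 alternative values of the member ratios, no ratio called at 2-fold changed sign, and 34 changed a call, a sign or the size by over 1.5-fold; these stand beside the results. The count of genes called changed in 4 comparisons. For Prox1-type against blood-type GFP- cells it was 1, and 2 as a mean over cells, 2 in thinned cells, and 1 to 2 when leaving out each pool. For GFPlow against GFP+ cells it was 1, and 0 in thinned cells and 0 with the higher floor for low genes. For GFP+ against GFP- cells it was 2, and 3 as a mean over cells, in thinned cells and without pool A. For GFPlow against GFP- cells it was 3, and 2 without pool B. The cause was not tested. Gates on 1 plate (tumour ECs, macrophages) allow no such omission. With 7 blood cells and 8 GFP- cells in pool C, shares there are loose.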

Other observations

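The antisense gene Gm15581 (chr6:17206823-17385604, minus strand), which spans Cav1 and Cav2 without sharing an exonic base, was looked at after its values were seen. It had 1416 reads in 19 of 98 LN GFP+ cells (14.9 CPM, 14.1 to 15.7; 42.4% from 1 cell) and 949 reads in 7 of 79 LN GFPlow cells (9.97 CPM, 9.35 to 10.6). It had 5 reads in 2 of 74 LN GFP- cells, 22 reads in 1 of 84 tumour ECs, and none in tumour CLECs (exact upper bound 2.16% of cells) or 81 macrophages. Of the 19 LN GFP+ cells with Gm15581 reads, 3 also had a Cav1 read, while 24 of all 98 LN GFP+ cells had one. The libraries do not mark strand, so reads counted to Gm15581 cannot be assigned to the antisense strand.

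The nearest other protein-coding genes on either side had other orders of gates than the caveolins, though Tes differed only in the place of LN GFP- cells. Tes, 175356 bases before Cav2, was at 212.4 and 213.3 CPM in tumour CLECs and ECs and at 43.8, 29.7 and 22.96 CPM in LN GFP-, GFPlow and GFP+ cells. Met, 122347 bases after Cav1, was highest in LN GFP+ cells (123.9 CPM), then GFPlow (71.6), GFP- (40.3), tumour CLECs (13.2) and tumour ECs (6.45).

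Among 7 kept blood GFP+ cells, Plvap had 6 reads in 1 cell, Cav2 17 reads in 1 cell and Cav1 none, where Ptprc had reads in 5 cells and Pecam1 in 3. Of 20 blood wells below the filters, 1 held 733 Plvap reads. Unlike the kept cells, these wells had no Ptprc read, and Pecam1 had 4531 reads in 6 of them.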
